A study of Mus musculus with 64 samples.

Results

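Adipocytes store fatty acids as triglyceride, which is built by adding acyl chains to glycerol 3-phosphate. Expression of 10 genes of this route was followed in 2 fat depots of mice lacking *Nampt* in adipocytes, brown fat (brown adipose tissue, BAT) and epididymal white fat (eWAT). The rule for the genes was their place in the pathway: *Gpam*, *Gpat3*, *Gpat4*, *Agpat2*, *Lpin1*, *Dgat1* and *Dgat2* of the acylation steps, and *Pck1*, *Gk* and *Gpd1*, which provide or interconvert glycerol 3-phosphate. The list was chosen with earlier results of these data known. All 10 passed the filter on low counts, out of 20249 genes tested and 52636 in the count table. RNA sequencing covered 64 samples in 16 groups of 4, from both depots of wild-type (WT) and fat-specific *Nampt* knockout (FANKO) mice at ZT 6, 10, 18 and 22 (h after lights on at ZT 0). The animals were male, 2 to 4 months old, fed chow and kept at room temperature. FANKO mice carried the floxed *Nampt* allele *Nampt* tm1Jtree together with Adiponectin-Cre, a transgene whose promoter is active in both brown and white adipocytes. WT mice were littermates without Cre. NAMPT is the rate-limiting enzyme of the NAD+ salvage pathway.

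In the glycerol phosphate pathway, a glycerol-3-phosphate acyltransferase makes lysophosphatidic acid, AGPAT enzymes convert it to phosphatidic acid, lipins remove the phosphate to give diacylglycerol, and DGAT enzymes attach the last acyl chain. Adipocytes obtain glycerol 3-phosphate from glycolytic dihydroxyacetone phosphate through GPD1, from non-carbohydrate precursors by glyceroneogenesis, in which PCK1 is the regulated step, and by phosphorylating glycerol through glycerol kinase (GK), an enzyme long known to be low in white and higher in brown fat. In brown fat this synthesis refills droplets that are drained to fuel heat production.

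Stretches just upstream of the gene starts are shown for *Pck1*, *Gk* and *Lpin1*, chosen after their values were seen as the members with a searched motif among those whose BAT level differed most in size or in timing between genotypes. RefSeq windows (build GRCm38.p6) were at hand for 6 of the 10 members and not for *Dgat1*, *Dgat2*, *Gpat4* and *Gpd1*. Capitals mark matches to 6 short motifs searched on both strands: the E-box CACGTG, the related CACGTT, the D-box TTANGTAA, the nuclear receptor half-site AGGTCA, the CRE core ACGTCA and the C/EBP form TTGCNNAA. The matches printed here do not overlap one another. Each stretch is the gene's sense strand, 5′ to 3′. The *Pck1* stretch stops short of the RefSeq start because GENCODE places the gene's start earlier. *Pck1* lies on the plus strand, at chr2:173152823-173153047, and *Gk* (chrX:85776820-85777069) and *Lpin1* (chr12:16610967-16611216) lie on the minus strand.
Pck1: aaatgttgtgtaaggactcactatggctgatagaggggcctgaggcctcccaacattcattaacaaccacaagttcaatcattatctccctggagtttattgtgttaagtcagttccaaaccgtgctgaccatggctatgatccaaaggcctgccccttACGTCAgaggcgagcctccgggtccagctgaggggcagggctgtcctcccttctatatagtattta
Gk: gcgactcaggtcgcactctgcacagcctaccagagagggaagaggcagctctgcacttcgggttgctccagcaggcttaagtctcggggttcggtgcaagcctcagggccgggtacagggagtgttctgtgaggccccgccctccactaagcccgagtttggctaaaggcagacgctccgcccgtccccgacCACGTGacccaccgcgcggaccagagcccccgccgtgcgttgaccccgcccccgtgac
Lpin1: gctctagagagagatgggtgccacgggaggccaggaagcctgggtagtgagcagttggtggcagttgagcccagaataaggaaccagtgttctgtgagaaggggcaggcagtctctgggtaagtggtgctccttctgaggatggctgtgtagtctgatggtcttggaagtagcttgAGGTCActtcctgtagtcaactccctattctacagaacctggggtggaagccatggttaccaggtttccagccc
The *Pck1* stretch holds 1 CRE core, beginning 91 bases before the RefSeq start, a motif found in 6.47% of the 32851 windows of 250 bases in the table. The *Gk* stretch holds 1 E-box beginning 58 bases before its start (6.02% of windows), and the *Lpin1* stretch holds 1 half-site beginning 74 bases before its start (14% of windows). None of the 6 motifs was found in the windows of *Gpam* and *Agpat2*, and the *Gpat3* window, which lies inside the gene as GENCODE draws it and is not printed, holds 1 CRE core. The other motifs occur in 3.85% (CACGTT), 2.06% (TTANGTAA) and 9.56% (TTGCNNAA) of windows.

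Libraries held between 6117343 and 30544847 counts. *Nampt* itself ranged over 479 to 1454 CPM with a median of 702 CPM in WT BAT and over 109 to 186 CPM with a median of 143 CPM in FANKO BAT, without overlap, and over 112 to 309.7 CPM with a median of 149 CPM in WT eWAT and 101 to 131 CPM with a median of 114 CPM in FANKO eWAT, where the ranges overlapped. CPM are counts scaled to library size with TMM factors, and the gene count of *Nampt* includes exons that the deletion leaves in place. All 8 adipocyte markers were detected in both depots, and *Ucp1*, which defines brown adipocytes, was at 1930.4 to 7370.1 CPM with a median of 4305 CPM in WT BAT and at most 7.10 CPM in eWAT. WT ZT 18 replicate 4 stood apart from its group in both depots, as did WT eWAT ZT 6 replicate 2 for 3 members, and several results are also given without them. Where a replicate is left out by number alone, as in "without replicate 4", it was removed from every group. Summed skeletal muscle markers exceeded 100 CPM in 7 BAT libraries, 4 of them WT. The labels do not say which samples share a litter, and p-values measure the spread between these samples.

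Per kilobase of exon, the level of the members spanned a wide range. In WT BAT, *Gpd1*, the cytosolic glycerol-3-phosphate dehydrogenase, stood highest at 2812 ± 406 CPM per kb (mean ± SD, n = 16), followed by *Agpat2* (1088 ± 241 CPM per kb), *Pck1* (1066 ± 663 CPM per kb) and *Dgat2* (729.6 ± 219 CPM per kb). The mean of *Agpat2* lay within the larger SD of that of *Pck1*, and that of *Pck1* within the larger SD of *Dgat2*, while *Gpd1* lay beyond it from *Agpat2* and *Dgat2* from *Lpin1*. *Lpin1*, *Dgat1*, *Gpam* and *Gpat4* followed between 123 and 76.3 CPM per kb, each neighbour of these 4 within the larger SD of the next, and *Gpat4* lay beyond it from *Gk*. *Gk* (34.3 ± 23.8 CPM per kb) and *Gpat3* (4.03 ± 1.97 CPM per kb) were the lowest members.

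In WT eWAT the order was different at both ends. *Dgat2*, one of the 2 enzymes of the last acylation, led at 803 ± 343 CPM per kb, ahead of *Pck1* (383 ± 229 CPM per kb), *Gpd1* (278 ± 132 CPM per kb) and *Agpat2* (254 ± 115 CPM per kb), where *Pck1* lay within the larger SD of *Gpd1* and *Gpd1* within that of *Agpat2*, while *Dgat2* lay beyond it from *Pck1* and *Agpat2* from *Gpam*. *Gk* was last at 2.17 ± 1.51 CPM per kb, below *Gpat3* (37.5 ± 9.07 CPM per kb) and *Gpat4* (25.4 ± 4.28 CPM per kb). In FANKO eWAT *Dgat2*, *Agpat2* and *Gpd1* occupied the first places, at 844 ± 64.3, 684 ± 87.9 and 524 ± 69.7 CPM per kb, each beyond the SD of the next, while in FANKO BAT *Gpd1*, *Agpat2* and *Dgat2* led and *Pck1* (92.2 ± 95.99 CPM per kb) lay within the SD of *Dgat1* (82.8 ± 14.8 CPM per kb).

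**Figure D1:**
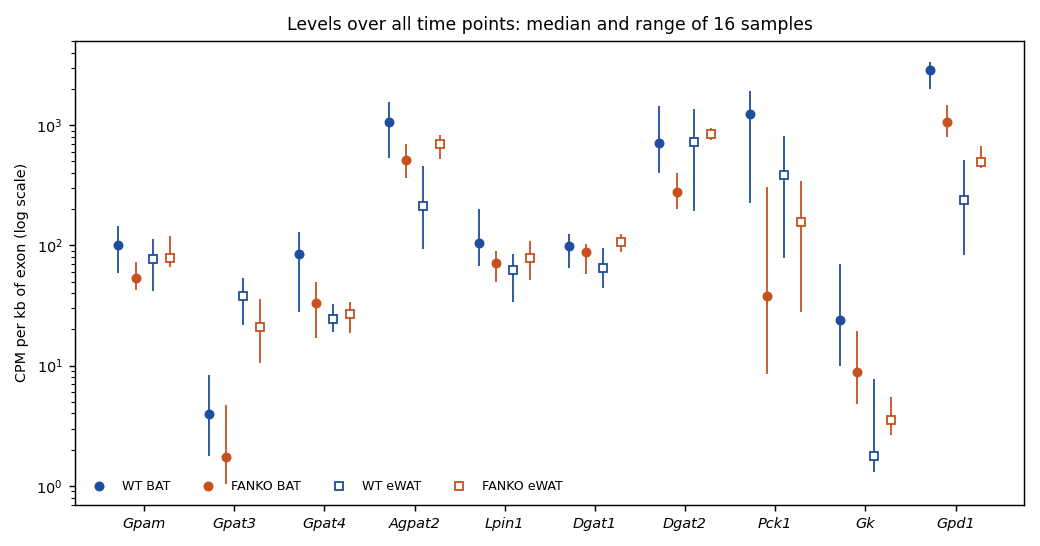
Level of each member as CPM per kb of exon (log axis) in the 4 combinations of genotype and depot. Points are medians and lines the lowest to highest of 16 samples over all time points. Gk and Gpd1 are highest in WT BAT, and Gpat3 is highest in eWAT.

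The first comparison asked how the mean level over the day differed between FANKO and WT. In BAT all 10 members were lower in FANKO mice and passed the test (edgeR quasi-likelihood test on a 24 h cosine model, Benjamini-Hochberg FDR of 0.01 over all genes), against 33.9% of all genes called lower and 33.1% called higher. The median log2 fold change of the members was -1.10, against a median of 0.00 (9.69e-05) over all genes tested. Scaling by library size alone moved the median of all genes by 0.58 in BAT, under which 6 members were lower, 3 were not called (*Gpam*, *Gpat3* and *Lpin1*, adjusted p = 0.0262, 0.0241 and 0.0936), 1 (*Dgat1*) was higher and 84.9% of called genes were higher in place of 49.4%.

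The glyceroneogenic and glycerol-activating enzymes showed the widest gaps. *Pck1* ranged over 773 to 6552 CPM with a median of 4264 CPM in WT BAT and over 29.04 to 1052 CPM with a median of 130.05 CPM in FANKO BAT. At ZT 22 the 4 WT samples were at 773, 1109.8, 1206 and 2689.9 CPM and the 4 FANKO samples at 29.04, 40.3, 67.4 and 74.3 CPM. Every FANKO sample lay below every WT sample of its time point, and the mean level was 16.02-fold lower, a log2 fold change of -4.00 (SE 0.25, edgeR adjusted p = 6.15e-22). *Gk* ranged over 76.7 to 545 CPM with a median of 185 CPM in WT BAT and 37.1 to 149.96 CPM with a median of 68.4 CPM in FANKO BAT, and fell with a log2 fold change of -1.62 (SE 0.19, edgeR adjusted p = 1.71e-11). *Gpd1* was at 5877 to 9932 CPM with a median of 8479.98 CPM in WT BAT and at 2342 to 4377 CPM with a median of 3163 CPM in FANKO BAT. The highest FANKO sample of *Gpd1* was below the lowest WT sample over all time points, with a log2 fold change of -1.38 (SE 0.12, edgeR adjusted p = 8.8e-16).

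Among the acylation enzymes, the 3 glycerol-3-phosphate acyltransferases fell in FANKO BAT. *Gpat4*, an endoplasmic reticulum enzyme, ranged over 187 to 855 CPM with a median of 570.02 CPM in WT BAT and 113 to 328 CPM with a median of 223 CPM in FANKO BAT, a log2 fold change of -1.13 (SE 0.09, edgeR adjusted p = 9.12e-18). *Gpam*, which encodes the mitochondrial enzyme GPAT1, ranged over 392 to 973 CPM with a median of 669 CPM in WT BAT and 283 to 481 CPM with a median of 354 CPM in FANKO BAT, a log2 fold change of -0.77 (SE 0.08, edgeR adjusted p = 3.63e-13). *Gpat3* was scarce in BAT, at 6.19 to 29.1 CPM with a median of 13.8 CPM in WT and 3.66 to 16.5 CPM with a median of 6.09 CPM in FANKO, a log2 fold change of -0.87 (SE 0.12, edgeR adjusted p = 8.24e-09). Its exons overlap those of 2 other annotated genes (4930458D05Rik, antisense, and Gm42987), from which its reads may not be separable. *Agpat2*, whose loss causes lipodystrophy, was at 1129 to 3313 CPM with a median of 2257 CPM in WT BAT and 768 to 1495 CPM with a median of 1095 CPM in FANKO BAT, a log2 fold change of -1.07 (SE 0.13, edgeR adjusted p = 3.49e-11). Exons of *Agpat2* overlap *Egfl7* on the other strand, and those of *Gk* and *Gpd1* overlap antisense genes, and the strand setting of the counting is not given in the sources used here.

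*Lpin1*, a phosphatidic acid phosphatase, was at 654 to 1947 CPM with a median of 1019.95 CPM in WT BAT and 483 to 875 CPM with a median of 688 CPM in FANKO BAT, a log2 fold change of -0.73 (SE 0.09, edgeR adjusted p = 9.53e-11). The 2 acyltransferases of the last step, which share a reaction but no sequence family, had unlike log2 fold changes, a difference that was not tested. *Dgat2* was at 1239 to 4399 CPM with a median of 2189 CPM in WT BAT and 621 to 1222 CPM with a median of 849 CPM in FANKO BAT, without overlap, a log2 fold change of -1.37 (SE 0.14, edgeR adjusted p = 1.6e-13). *Dgat1* was at 199 to 379 CPM with a median of 304 CPM in WT BAT and 175 to 313 CPM with a median of 271 CPM in FANKO BAT, ranges that overlapped over most of their span. Its log2 fold change of -0.22 (SE 0.07, edgeR adjusted p = 0.00521) was the smallest of the members. The call on *Dgat1* was lost with RLE scaling (adjusted p = 0.0242), with DESeq2 (0.0214), with each depot fitted separately (0.0351), without replicate 1, 2 or 4 (0.0565, 0.0111 and 0.0405) and without the 7 BAT libraries high in muscle markers (0.191), and its direction turned with library size alone, to 0.35.

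**Figure D2:**
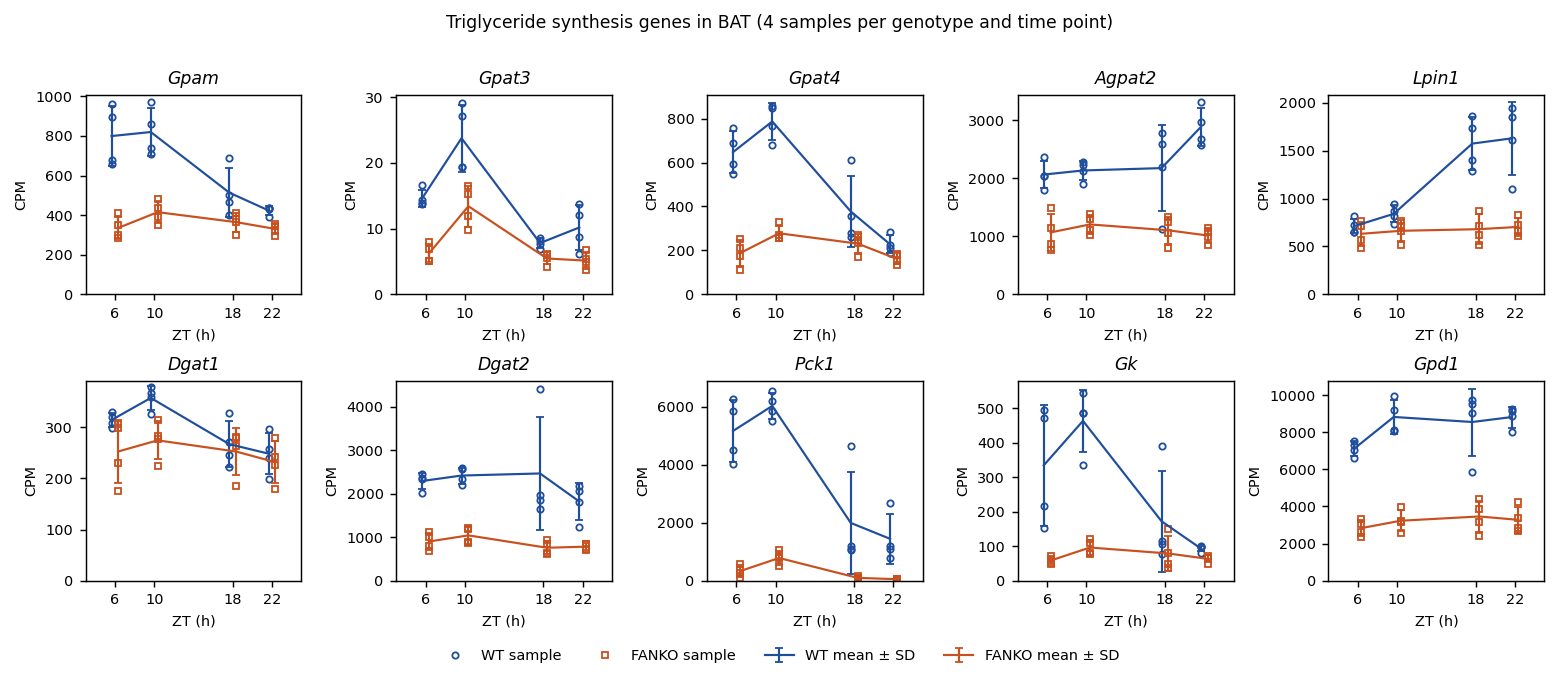
CPM of the 10 members in BAT against ZT (h), linear axes from 0. Circles are WT and squares FANKO samples, lines join means and bars are SD (4 samples each). The FANKO samples of Pck1, Dgat2 and Gpd1 lie below the WT samples at every time point.

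Markers of other cells moved with these differences. In bulk tissue, fewer cells of a type and less RNA per cell cannot be told apart. The summed level of the 8 adipocyte markers was 10527 to 14747 CPM in WT BAT and 4751 to 8500.5 CPM in FANKO BAT, with all 8 markers lower and a median log2 fold change of -0.87. Summed macrophage markers were 101 to 189 CPM in WT BAT and 606 to 1436 CPM in FANKO BAT, with 8 of 8 higher and a median log2 fold change of 3.58, and summed lymphocyte markers were 1.48 to 3.47 CPM and 35.2 to 117 CPM, with 6 of 6 higher. Reads of the mitochondrial genome made up 16.8 to 40.7% of counts in WT BAT and 7.48 to 24.7% in FANKO BAT. Stromal and progenitor markers were higher (5 of 5, median log2 fold change 0.82), and 3 of 5 endothelial markers and 4 of 6 brown adipocyte markers were lower. Skeletal muscle markers summed to 0.845 to 446 CPM in WT BAT and 2.83 to 393 CPM in FANKO BAT. The median of this sum was 34.7 CPM in WT and 4.74 CPM in FANKO BAT. The part of these cell types in the members' differences was not tested. *Pck1*, *Gk*, *Gpd1*, *Dgat2*, *Gpat4* and *Agpat2* had log2 fold changes below the adipocyte marker median, *Gpat3* matched it to 2 decimals, and *Gpam*, *Lpin1* and *Dgat1* were above it. The 8 adipocyte markers fell unevenly. The mean of *Cfd* was 602 CPM in WT and 127 CPM in FANKO BAT, and that of *Cidec* 1060 and 741 CPM. Standing below the median therefore does not place a member outside the range of the markers, and no member was tested against them.

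In eWAT the members did not move together. Of the 10, 5 were higher in FANKO mice (*Agpat2*, *Gpd1*, *Gk*, *Dgat1* and *Lpin1*), 2 were lower (*Pck1* and *Gpat3*) and 3 did not pass the test, where 27.6% of all genes were called higher and 22.8% lower. The median log2 fold change was 0.28 over the members and -0.02 over all genes. Library size alone moved the median of all genes by -0.25 and left 3 members higher and 2 lower, with *Lpin1* (0.12, adjusted p = 0.238) and *Gk* (0.50, 0.0261) no longer called and 21.8% of called genes higher in place of 54.8%.

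*Agpat2* showed the largest rise and ranged over 200.1 to 971 CPM with a median of 452 CPM in WT eWAT and 1114 to 1777 CPM with a median of 1471 CPM in FANKO eWAT. The lowest FANKO sample was above the highest WT sample over all time points, and the mean level was 2.80-fold higher, a log2 fold change of 1.48 (SE 0.13, edgeR adjusted p = 2.44e-15). *Gpd1* rose and ranged over 247 to 1503 CPM with a median of 701 CPM in WT and 1307 to 1980.4 CPM with a median of 1457 CPM in FANKO mice, a log2 fold change of 0.99 (SE 0.12, edgeR adjusted p = 2.09e-10). *Dgat1* rose and ranged over 134 to 293 CPM with a median of 198 CPM in WT and 271 to 376 CPM with a median of 329 CPM in FANKO mice, a log2 fold change of 0.72 (SE 0.07, edgeR adjusted p = 5.51e-13). These 3 genes act at the second and last acylation and at the entry from glycolysis.

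*Gk* stayed low in eWAT in both genotypes. It ranged over 10.1 to 59.5 CPM with a median of 13.8 CPM in WT and 20.4 to 42.5 CPM with a median of 27.4 CPM in FANKO eWAT, a log2 fold change of 0.76 (SE 0.19, edgeR adjusted p = 0.000612), and the highest WT value was WT ZT 6 replicate 2, without which the log2 fold change was 1.01. The call on *Gk* was lost without replicate 3 (adjusted p = 0.0216). *Lpin1* rose and ranged over 324 to 814 CPM with a median of 602 CPM in WT and 501 to 1048 CPM with a median of 761 CPM in FANKO mice, a log2 fold change of 0.37 (SE 0.09, edgeR adjusted p = 0.000329), a call lost without replicate 2 (0.0121).

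*Pck1* and *Gpat3* were lower in FANKO eWAT, as in FANKO BAT. *Pck1* ranged over 268 to 2769.5 CPM with a median of 1314 CPM in WT and 95.2 to 1171 CPM with a median of 539 CPM in FANKO eWAT, a log2 fold change of -1.27 (SE 0.22, edgeR adjusted p = 2.19e-06). *Gpat3* ranged over 76.03 to 189 CPM with a median of 134 CPM in WT eWAT and 37.00 to 126 CPM with a median of 73.5 CPM in FANKO eWAT, and all 4 FANKO samples lay below all 4 WT samples at each time point, a log2 fold change of -0.88 (SE 0.10, edgeR adjusted p = 1.33e-10). *Gpam* (0.18, adjusted p = 0.0408), *Gpat4* (0.12, 0.217) and *Dgat2* (0.12, 0.466) had log2 fold changes with SEs of 0.08, 0.09 and 0.14 that did not pass the test. *Dgat2* ranged over 596 to 4173 CPM with a median of 2241 CPM in WT eWAT and over the narrower 2299.8 to 2927 CPM with a median of 2591 CPM in FANKO eWAT.

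**Figure D3:**
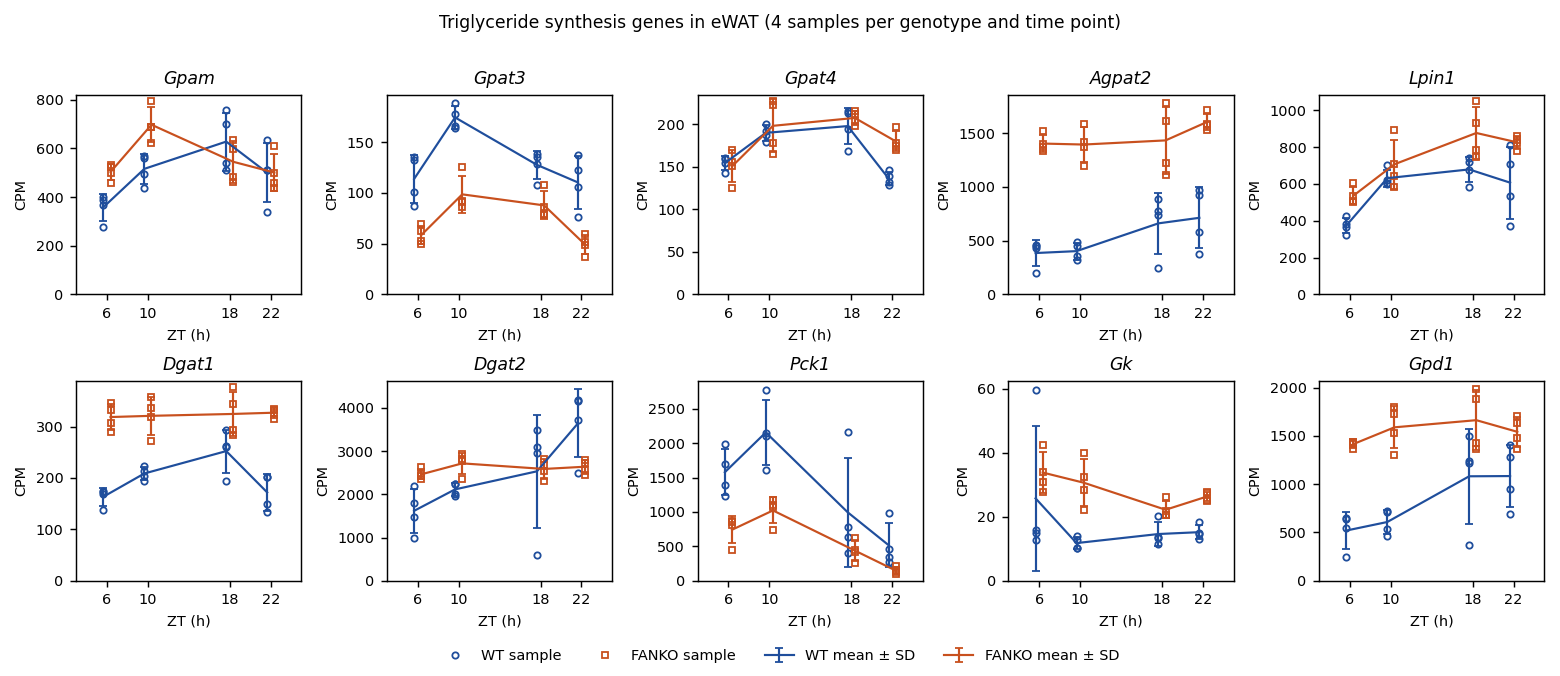
CPM of the 10 members in eWAT against ZT (h), linear axes from 0. Circles are WT and squares FANKO samples, lines join means and bars are SD (4 samples each). FANKO samples of Agpat2 lie above and those of Gpat3 below the WT samples at every time point, and 1 WT sample at ZT 18 stands low for Dgat2, Agpat2 and Gpd1.

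Adipocyte markers in eWAT summed to 16444 to 25565 CPM in WT and 15014 to 22317 CPM in FANKO mice, with 6 of 8 lower, 1 higher and a median log2 fold change of -0.55. Summed macrophage markers were 607 to 936 CPM and 595 to 1117 CPM, and 4 of 8 were called higher. Stromal and progenitor markers were lower (5 of 5, median -0.82), as were all 4 mesothelial markers (median -0.81). Brown adipocyte markers summed to 17.02 to 37.5 CPM in WT and 51.99 to 117 CPM in FANKO eWAT, without overlap, with 3 of 6 higher and 1 lower (median 1.06). Mean CPM in WT and FANKO eWAT were 5.05 and 40.0 for *Cidea*, 0.55 and 1.38 for *Ucp1*, and 2.14 and 0.53 for *Dio2*. *Cidea*, and *Plin1* and *Cidec* of the adipocyte markers, are also members of the lipid droplet list below. Lymphocyte markers summed to 5.36 to 34.03 CPM and 7.77 to 19.9 CPM, with 3 of 6 higher and 2 lower. Skeletal muscle markers summed to 11.5 to 86.98 CPM and 27.4 to 116 CPM, with 1 of 7 higher. Among them, mean CPM in WT and FANKO eWAT were 18.3 and 53.9 for *Acta1*. They went the other way for *Actn3* (3.80 and 2.01) and *Myh1* (0.61 and 0.33). Of 5 endothelial markers 1 was lower. Reads of the mitochondrial genome made up 3.88 to 10.7% of counts in WT and 6.11 to 14.6% in FANKO eWAT. Their part in the members' differences was not tested.

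The genotype effect itself differed between depots for 9 of the 10 members, each of them more negative in BAT, where 32.1% of all genes were called in that direction. The difference of the log2 fold changes, BAT minus eWAT, was -2.73 for *Pck1* (SE 0.32, edgeR adjusted p = 2.87e-11) and -2.55 for *Agpat2* (SE 0.18, 1.91e-19). It was -2.38 for *Gk* and -2.37 for *Gpd1*, and between -1.49 and -0.94 for *Dgat2*, *Gpat4*, *Lpin1*, *Gpam* and *Dgat1*. For *Agpat2*, *Gpd1*, *Gk*, *Dgat1* and *Lpin1*, levels were lower in FANKO BAT and higher in FANKO eWAT, each called in both depots. *Gpat3* had a difference of 0.0054 (SE 0.18, adjusted p = 0.991). With library size alone the calls on *Gpam* (adjusted p = 0.272), *Dgat1* (0.292) and *Lpin1* (0.0384) were lost and *Gpat3* was called higher in BAT (0.83).

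**Figure D4:**
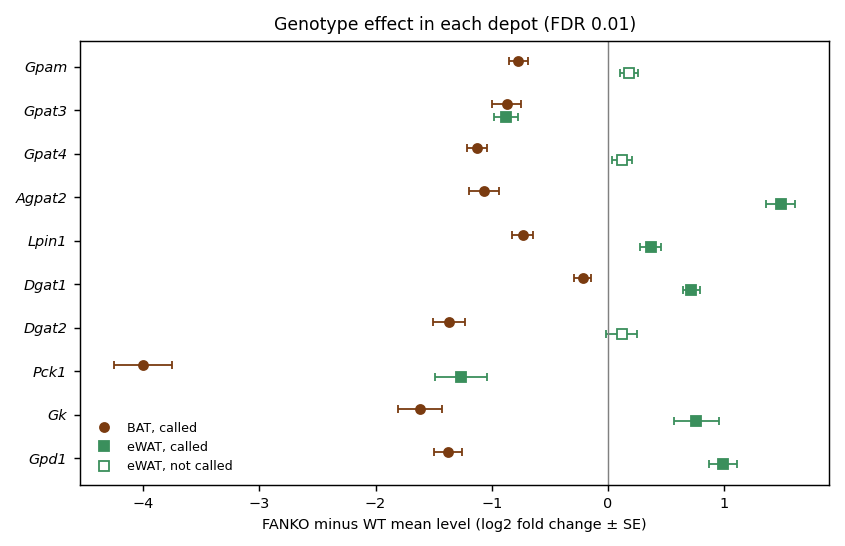
Genotype effect on the mean level of each member, FANKO minus WT, as log2 fold change ± SE (16 samples per genotype and depot), with circles for BAT and squares for eWAT. Open symbols did not pass an FDR of 0.01. All 10 circles lie left of 0, from -4.00 (Pck1) to -0.22 (Dgat1), and 5 filled squares lie right of 0.

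Between the depots of WT mice, 8 members were higher in BAT (32.7% of all genes were called higher in BAT and 41.1% lower). *Gk* had the largest difference, 13.6-fold higher in BAT, a log2 fold change of 3.77 (SE 0.21, edgeR adjusted p = 1.01e-24), followed by *Gpd1* with a log2 fold change of 3.41 (SE 0.13, edgeR adjusted p = 2.48e-32). The log2 difference was 2.15 for *Agpat2*, 1.45 for *Gpat4*, 1.41 for *Pck1* and 0.99 for *Lpin1*, with SEs from 0.09 to 0.22. *Gpat3* was the member that was higher in eWAT, 9.95-fold lower in BAT with a log2 fold change of -3.31 (SE 0.12, edgeR adjusted p = 9.88e-34), and *Dgat2* did not pass the test (-0.10, adjusted p = 0.5). The smallest called difference, that of *Gpam* (0.33), was lost without replicate 4 (adjusted p = 0.0311) and without the BAT libraries high in muscle markers (0.0173). Under library size alone, *Gpam* (-0.41) and *Dgat1* (-0.15) turned direction, 13.7% of called genes were higher in BAT in place of 44.3%, and the median of all genes moved by -0.74. All 6 brown adipocyte markers were higher and all 8 macrophage markers lower in WT BAT than in WT eWAT, 6 of 8 adipocyte markers were lower in BAT, and their part in these differences was not tested.

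In FANKO mice 2 members were higher in BAT (*Gk* and *Gpd1*) and 6 were lower, beside 28.1% and 31.6% of all genes. *Gk* was 2.62-fold higher in BAT and *Gpd1* 2.06-fold higher. *Gpat3* kept a log2 difference of -3.31 (SE 0.12), and *Dgat2* (-1.59), *Pck1* (-1.32), *Gpam* (-0.63), *Agpat2* (-0.41) and *Dgat1* (-0.35) were the other 5 lower members. The call on *Agpat2* was lost without replicate 1 (0.0312) or 2 (0.036), without the BAT libraries high in muscle markers (0.0214), with RLE scaling (0.0158), with DESeq2 (0.012) and with library size alone (0.0101). WT and FANKO depot differences share no samples, and each is given by its own values.

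The second question was how the members varied over the day. In WT BAT 7 members had a 24 h rhythm, against 13.9% of all genes, and in FANKO BAT 3 did (*Gpat3*, *Gpat4* and *Pck1*), against 2.84%. With 4 time points, a peak is located only to the nearest of them. The difference between the highest and lowest time point mean of log2 CPM is called the amplitude here. In WT BAT, *Gk*, *Pck1*, *Gpat4*, *Gpat3*, *Gpam* and *Dgat1* had their highest mean at ZT 10, late in the light phase, and *Lpin1* at ZT 22, late in the dark phase. The rhythm of *Dgat1* in WT BAT (edgeR adjusted p = 0.00638) was lost with no filter (0.0153), with time as a factor (0.0211), with separate fits (0.0153) and without replicate 2, 3 or 4 (0.0643, 0.0733 and 0.0341). That of *Gpat4* in FANKO BAT (0.00318) was lost with library size alone (0.0231), with separate fits (0.0456) and without replicate 1, 2 or 3 (0.0837, 0.0487 and 0.0131).

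*Gk* in WT BAT was at 337, 485, 486 and 545 CPM at ZT 10 and at 81.4, 96.4, 96.7 and 99.8 CPM at ZT 22. In FANKO BAT it was at 77.6, 79.7, 108 and 119.7 CPM and 48.8, 66.2, 66.3 and 72.5 CPM at the same times. The amplitude of *Gk* was 2.29 (SE 0.17) in WT and 0.71 (SE 0.20) in FANKO BAT, and the genotypes did not overlap at ZT 10. The rhythm passed the test in WT (edgeR adjusted p = 3.34e-06) and not in FANKO BAT (0.39), while the difference of rhythm missed it (0.0135) and passed it without WT BAT ZT 18 replicate 4 (0.000243), a sample at 391 CPM beside 76.7, 107 and 115 CPM in the others.

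The difference of rhythm between genotypes in BAT passed for *Gpat4* (adjusted p = 0.000151), *Lpin1* (0.00093) and *Gpam* (0.00939), beside 2.76% of all genes. *Gpat4* in WT BAT was at 679, 764, 849 and 855 CPM at ZT 10 and at 187, 214, 226 and 286 CPM at ZT 22. Its amplitude was 1.80 (SE 0.15) in WT and 0.79 (SE 0.14) in FANKO BAT, where it was at 256, 256, 272 and 328 CPM at ZT 10 and 132, 152, 181 and 183 CPM at ZT 22. *Lpin1* in WT BAT was at 654, 656, 729 and 813 CPM at ZT 6 and at 1101, 1609.9, 1849 and 1947 CPM at ZT 22, higher in the dark phase. In FANKO BAT it was at 483, 572, 714 and 760.4 CPM and 608, 662, 723 and 824 CPM, and the amplitude was 1.16 (SE 0.20) in WT and 0.17 (SE 0.18) in FANKO BAT. *Gpam* had amplitudes of 0.94 (SE 0.11) in WT and 0.32 (SE 0.11) in FANKO BAT. These 3 calls became 1, 0, 1 and 4 when replicates 1, 2, 3 and 4 of every group were left out in turn. Each such fit holds fewer samples, and its share of all genes called is not given here. Besides, the call on *Gpam* was lost with library size alone, with no filter, with time as a factor, with separate fits and without the libraries high in muscle markers, and that on *Lpin1* without those libraries (0.0124).

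*Pck1* was rhythmic in both genotypes of BAT. In WT BAT it was at 5504, 5839.8, 6197 and 6552 CPM at ZT 10 and 1065, 1088, 1181 and 4634 CPM at ZT 18, where replicate 4 was the high sample. In FANKO BAT it was at 495, 768, 819 and 1052 CPM at ZT 10 and 60.02, 77.5, 105 and 155 CPM at ZT 18. The amplitude was 2.22 (SE 0.38) in WT and 3.94 (SE 0.39) in FANKO BAT, and the difference of rhythm did not pass the test (adjusted p = 0.139). *Gpat3* was rhythmic in both genotypes too, with amplitudes of 1.57 (SE 0.17) and 1.37 (SE 0.25), and its highest mean was at ZT 10 in all 4 combinations of genotype and depot. *Agpat2*, *Dgat2* and *Gpd1* had no rhythm past the threshold in BAT of either genotype, with WT amplitudes of 0.48 (SE 0.11), 0.44 (SE 0.19) and 0.31 (SE 0.06).

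At single time points in BAT, 8 members were lower at ZT 6 (23.9% of all genes), 8 at ZT 10 (22.4%), 8 at ZT 18 (22.5%) and 6 at ZT 22 (22.7%). *Lpin1* did not pass the test at either time of the light phase and fell at both of the dark phase, with log2 fold changes of -0.17 at ZT 6 and -0.34 at ZT 10 (adjusted p = 0.403 and 0.0853), and -1.21 and -1.21 at ZT 18 and 22 (each with an SE of 0.17). *Gpat4* went the other way, from -1.79 (SE 0.18) at ZT 6 to -0.50 at ZT 22 (adjusted p = 0.0126), as did *Gk*, from -2.51 (SE 0.38) to -0.56 (0.193), and *Gpam*, from -1.25 (SE 0.16) to -0.36 (0.047). *Dgat1* passed at no single time point in BAT, though its difference at ZT 10 had an adjusted p of 0.0247. *Pck1*, *Dgat2*, *Gpd1* and *Agpat2* were lower at all 4. With library size alone *Agpat2* was no longer called at ZT 6, 10 and 18 (adjusted p = 0.127, 0.354 and 0.165), nor *Dgat2* at ZT 10 and 22 (0.0354 and 0.0332). The calls on *Agpat2* at these 3 times were also lost without replicate 1 (0.0194, 0.0195 and 0.0174), those at ZT 10 and 18 without replicate 2 (0.046 and 0.0244), that at ZT 10 without replicate 3 (0.0309), and those at ZT 6 and 10 without the libraries high in muscle markers (0.0139 and 0.0163). Without WT BAT ZT 18 replicate 4, 5 members were lower at ZT 18, with *Gpam*, *Gpat4* and *Gk* no longer called (adjusted p = 0.0903, 0.0433 and 0.433), and 5 were called without the libraries high in muscle markers, without replicate 1 and without replicate 4. These settings overlap. WT BAT ZT 18 replicate 4 had the highest muscle marker sum (446 CPM), and WT BAT ZT 18 replicate 1 (229 CPM) was also among the libraries high in them.

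**Figure D5:**
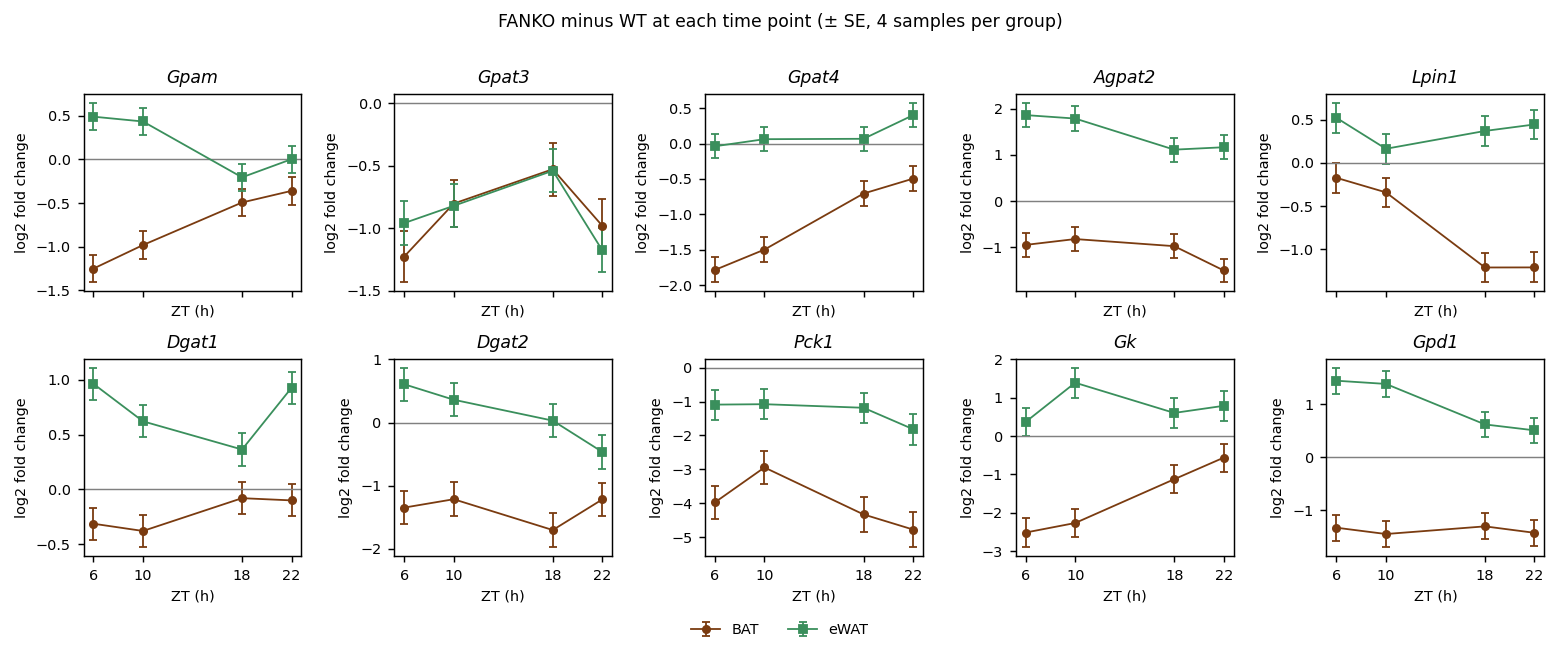
Log2 fold change of each member, FANKO minus WT, at ZT 6, 10, 18 and 22, with circles for BAT, squares for eWAT and bars for SE (4 samples per group). In BAT the gap of Gpat4, Gk and Gpam is widest at ZT 6 and that of Lpin1 at ZT 18 and 22. In eWAT Agpat2 is above 0 at all 4 time points.

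In eWAT, 6 members were rhythmic in WT mice (*Gpam*, *Agpat2*, *Lpin1*, *Dgat1*, *Pck1* and *Gpd1*), against 9.38% of all genes, and 2 in FANKO mice (*Gpat3* and *Pck1*), against 6.77%. The count in WT eWAT became 0, 0, 1 and 5 without replicates 1, 2, 3 and 4 of every group. With fewer samples in these fits and no share of all genes given, lower power and fragile calls cannot be told apart. Without WT eWAT ZT 6 replicate 2, the rhythm of *Lpin1* was not called (adjusted p = 0.0169), and that of *Agpat2* was (0.00822). The difference of rhythm passed for 0 members in edgeR, DESeq2 and limma-voom (1.15% of all genes were called by edgeR). It passed for 1 member, *Gpd1*, without WT eWAT ZT 18 replicate 4 (adjusted p = 0.00303). At an unadjusted edgeR p under 0.05 there were 5 members. The share of all genes at that unadjusted p is not given here, so these 5 cannot be set against it.

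*Pck1* in WT eWAT was at 1612, 2099.8, 2146 and 2769.5 CPM at ZT 10 and 268, 349.6, 463 and 987 CPM at ZT 22. In FANKO eWAT it was at 745, 1071, 1102 and 1171 CPM and 95.2, 125, 162 and 207 CPM at these times, with amplitudes of 2.22 (SE 0.44) in WT and 2.83 (SE 0.28) in FANKO mice. *Dgat2* in WT eWAT was at 988, 1486, 1804 and 2192 CPM at ZT 6 and 2499.97, 3730.3, 4159 and 4173 CPM at ZT 22. In FANKO eWAT it was at 2349.99, 2416, 2463 and 2620.1 CPM and 2450.2, 2562, 2735 and 2805 CPM. The FANKO samples lay above the WT samples at ZT 6, and the groups overlapped at ZT 22. The rhythm of *Dgat2* in WT eWAT missed the threshold (adjusted p = 0.0149) and passed it without WT eWAT ZT 18 replicate 4 (3.91e-05), a sample at 596 CPM beside 2963, 3089.6 and 3479 CPM.

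The highest WT mean of *Lpin1* fell at ZT 18 in eWAT and at ZT 22 in BAT, and that of *Gpam* at ZT 18 in eWAT and at ZT 10 in BAT. These differences of timing were not tested. Amplitudes in WT and FANKO eWAT were 1.10 (SE 0.40) and 0.21 (SE 0.14) for *Gpd1*, 0.86 (SE 0.43) and 0.21 (SE 0.09) for *Agpat2*, and 0.62 (SE 0.15) and 0.04 (SE 0.06) for *Dgat1*. *Lpin1* had amplitudes of 0.86 (SE 0.11) and 0.70 (SE 0.13), and its rhythm in FANKO eWAT had an adjusted p of 0.0101. At single time points in eWAT, 3, 4, 1 and 2 members were higher at ZT 6, 10, 18 and 22 (beside 16.9, 16, 8.54 and 12.6% of all genes), and 1, 1, 0 and 2 were lower (beside 10.1, 8.46, 5.10 and 8.02%). At ZT 18, where 0 were lower in edgeR, 1 was lower in DESeq2 and 1 in limma-voom. There, 2 (*Gpat3* and *Pck1*) had a negative difference at an unadjusted edgeR p under 0.05, a threshold without a share of all genes here. *Agpat2* was higher at each time point, by 1.87 (SE 0.26) at ZT 6, or 1.65 without WT eWAT ZT 6 replicate 2, and 1.12 (SE 0.26) at ZT 18 on the log2 scale, the latter not called without WT eWAT ZT 18 replicate 4 (adjusted p = 0.0104), nor without the samples numbered 1 (0.0168) or 2 (0.0139) of every group. *Gk* was higher at ZT 10 (1.39, SE 0.39, adjusted p = 0.00405), a call lost with library size alone (0.031) and without the samples numbered 1, 2 or 3 (0.017, 0.0112 and 0.0359), and, without WT eWAT ZT 6 replicate 2, also at ZT 6 (1.23, adjusted p = 0.00902).

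Other enzymes of the route, from a list of 22 of which 21 were tested, were split in BAT, with 6 higher and 11 lower in FANKO mice (median log2 fold change -0.25), and in eWAT 10 were higher and 2 lower (median 0.16). Of all genes, 33.1% were called higher and 33.9% lower in BAT, and 27.6% higher and 22.8% lower in eWAT. The list holds isoenzymes of the members and enzymes that feed them. The acyl-CoA synthetases *Acsl3* and *Acsl1*, which activate fatty acids, fell in BAT by log2 fold changes of -1.97 (SE 0.12) and -1.64 (SE 0.10) and did not pass the test in eWAT (0.16 and 0.12). *Gpd2*, the mitochondrial glycerol-3-phosphate dehydrogenase, ranged over 1632 to 2333 CPM with a median of 2064 CPM in WT BAT and 496 to 916 CPM with a median of 654 CPM in FANKO BAT, and over 52.5 to 191 CPM with a median of 121 CPM in WT eWAT and 386 to 516 CPM with a median of 448 CPM in FANKO eWAT. As with *Gpd1*, it was lower in BAT (-1.59, SE 0.10) and higher in eWAT (1.82, SE 0.10). The glycerol channel *Aqp7* fell in BAT (-1.03, SE 0.07) and rose in eWAT (0.30, SE 0.07).

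*Mogat2*, a monoacylglycerol acyltransferase best known from the intestine, rose in both depots and ranged over 0.593 to 3.13 CPM with a median of 1.57 CPM in WT BAT and 7.42 to 24.05 CPM with a median of 13.7 CPM in FANKO BAT (3.01, SE 0.22) and over 1.02 to 16.9 CPM with a median of 8.20 CPM in WT eWAT and 47.3 to 103 CPM with a median of 74.9 CPM in FANKO eWAT (3.27, SE 0.17), without overlap in either. *Mogat1* fell in BAT (-1.11, SE 0.12) and, by less, in eWAT (-0.40, SE 0.11), and *Agpat4* rose in BAT, with 0.937 to 2.51 CPM with a median of 1.94 CPM in WT and 4.16 to 8.19 CPM with a median of 6.52 CPM in FANKO BAT (1.85, SE 0.11). With library size alone 11 enzymes of the list were higher and 6 lower in BAT, and 4 higher and 5 lower in eWAT.

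Of 12 genes of the lipid droplet, 11 were tested, and 7 were lower and 1 higher in FANKO BAT (median log2 fold change -0.64), while 7 were higher and 2 lower in FANKO eWAT (median 0.22). The shares over all genes were 33.9% lower and 33.1% higher in BAT, and 27.6% higher and 22.8% lower in eWAT. *Plin2*, a coat protein of droplets in most cells, rose in eWAT, with 131 to 688 CPM with a median of 243 CPM in WT and 998 to 2309 CPM with a median of 1769 CPM in FANKO mice (2.43, SE 0.12), and in BAT by 0.93 (SE 0.12). *Cidea*, which enlarges droplets and marks brown fat, fell in BAT (-1.35, SE 0.14) and rose in eWAT, with 2.10 to 10.8 CPM with a median of 4.13 CPM in WT and 25.5 to 67.8 CPM with a median of 40.6 CPM in FANKO mice (3.03, SE 0.16), below the lowest BAT sample of either genotype. *Plin5*, a perilipin of oxidative tissues, fell in BAT (-1.56, SE 0.10) and rose in eWAT (0.82, SE 0.11). The count of 7 higher in eWAT became 4 without replicate 1 and 4 when each depot was fitted separately. These fits hold fewer samples, and no share of all genes is given for them.

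Likeness to other genes was measured as the root mean square difference between centred log2 CPM means of the 16 groups, as a description without a test. *Dgat1* lay nearest to *Tsta3* (0.126), *Agpat2* to *Acaca*, the first enzyme of fatty acid synthesis (0.133), *Gpam* to *Abhd5*, the co-activator of adipose triglyceride lipase (0.150), and *Gpd1* to *Cox5a*, a subunit of cytochrome c oxidase (0.186). *Lpin1* lay nearest to *Vps13a* (0.193), *Dgat2* to *Sardh* (0.231), *Gpat4* to *Ppp1r15b* (0.296), *Gpat3* to *Col6a6* (0.406) and *Gk* to *Srl* (0.441). *Pck1* had no close neighbour, the nearest being *Gm45909* at 0.977. Among the members, *Gpam* and *Dgat1* were nearest to each other (0.340), followed by *Gpam* and *Dgat2* (0.478). These distances are not scaled to how much a gene varies. The root mean square of a member's own centred means was 0.322 for *Dgat1*, 0.399 for *Gpam* and 0.680 for *Dgat2*. It was 1.31 for *Gpd1* and 1.86 for *Pck1*. The distance of *Gpam* and *Dgat1* exceeds the spread of *Dgat1* itself, so it does not show a shared pattern.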

How the data were processed

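Stranded, rRNA-depleted libraries of the 64 tissue samples were sequenced paired-end. Per the labels and the study's methods, the authors aligned reads with STAR 2.5.3a to GRCm38.p5 and deposited raw read counts per gene made with featureCounts 1.5.3 (quality control by FastQC 0.11.5 and MultiQC 1.2). The strand and multi-mapping settings are not given in the sources used here. Reads from overlapping or near-identical genes may be split by the counting.

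Counts were filtered with filterByExpr (minimum count 10, minimum total 15), scaled by TMM and fitted with edgeR 4.0.16 (R 4.3.3) by quasi-likelihood. A cosine model with a period of 24 h gave each genotype and depot a mean and a rhythm, and a fit of the 16 groups gave the single time points. Adjusted p-values are Benjamini-Hochberg values from edgeR over all 20249 genes, with a threshold of 0.01, unless another tool is named. Log2 CPM used a prior count of 2. Scripts were tested on simulated data. Alternatives included DESeq2 1.42.0, limma-voom (limma 3.58.1), other scaling, filters and FDR, a replicate block and leaving out libraries.

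Members and gene lists were chosen with earlier results of these data known. Named genes were all 10 members, and of the other pathway and droplet lists those called with an absolute log2 fold change of at least 1, with the nearest gene of each member by group means. Promoter sequences are RefSeq's, and overlaps and exon lengths come from a GENCODE annotation of the same genome that may differ in release from the authors' own.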

Additional observations from a re-analysis of the deposited data

Results flagged for a closer look

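Within the 160 groups of 4 samples, 1 sample lay far from the other 3 for 9 values by Dixon's test of the gap to the nearest sample over the group's range. Chance gives such a value in about 1 of 20 groups, here 8. *Gpam* was at 392 CPM in WT BAT ZT 22 replicate 1, below the nearest sample at 432 CPM. *Gpat3* was at 126 CPM in FANKO eWAT ZT 10 replicate 1, above the nearest sample at 91.5 CPM. *Agpat2* was at 200.1 CPM in WT eWAT ZT 6 replicate 2, below the nearest sample at 436 CPM. *Dgat1* was at 137 CPM in WT eWAT ZT 6 replicate 2, below the nearest sample at 169.7 CPM. *Dgat2* was at 4399 CPM in WT BAT ZT 18 replicate 4, above the nearest sample at 1964 CPM. *Pck1* was at 4634 CPM in WT BAT ZT 18 replicate 4, above the nearest sample at 1181 CPM. *Pck1* was at 447 CPM in FANKO eWAT ZT 6 replicate 3, below the nearest sample at 805 CPM. *Gk* was at 391 CPM in WT BAT ZT 18 replicate 4, above the nearest sample at 115 CPM. *Gk* was at 59.5 CPM in WT eWAT ZT 6 replicate 2, above the nearest sample at 15.8 CPM. WT BAT ZT 18 replicate 4 accounts for 3 of the 9 values and WT eWAT ZT 6 replicate 2 for another 3.

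The genotype effect differed between the depots by its interaction term for 9 members, with the difference (BAT minus eWAT, log2) at -0.95 for *Gpam*, -1.25 for *Gpat4*, -2.55 for *Agpat2*, -1.10 for *Lpin1*, -0.94 for *Dgat1*, -1.49 for *Dgat2*, -2.73 for *Pck1*, -2.38 for *Gk* and -2.37 for *Gpd1*. Macrophage and lymphocyte markers were higher in FANKO BAT, and their part in these differences was not tested.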

How the results depend on the processing

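Results were recomputed under the alternatives that apply to them: amplitudes under another prior count alone, another FDR for counts alone, single time points not with time as a factor, and comparisons across depots not with separate fits. Of these values, 3842 kept their direction and side of the threshold or moved within the stated margin, 120 lost a call and 54 gained one. Another 49 turned direction, and 59 counts moved by over 1.5 times or to or from 0. The cause of these changes was not tested. Fits that leave out samples have less power, and most counts below are given without the share of all genes called. The alternatives without WT BAT ZT 18 replicate 4, WT eWAT ZT 18 replicate 4, WT eWAT ZT 6 replicate 2 and the muscle-marker libraries were chosen after seeing the data. With RLE factors, the count became 4 other pathway enzymes lower over the day in eWAT (from 2) and 1 member lower at ZT 18 in eWAT (from 0), and the sign turned for *Dgat2* at ZT 18 in eWAT (-0.0287) and *Gpam* at ZT 22 in eWAT (-0.0510). With library size alone as the scaling, the count became 1 member higher over the day in BAT (from 0), 6 members lower over the day in BAT (from 10), 11 other pathway enzymes higher over the day in BAT (from 6), 6 other pathway enzymes lower over the day in BAT (from 11), 3 lipid droplet genes higher over the day in BAT (from 1), 4 lipid droplet genes lower over the day in BAT (from 7), 3 members higher over the day in eWAT (from 5), 4 other pathway enzymes higher over the day in eWAT (from 10), 5 other pathway enzymes lower over the day in eWAT (from 2), 4 lipid droplet genes higher over the day in eWAT (from 7), 4 lipid droplet genes lower over the day in eWAT (from 2), 3 members lower between depots in WT (from 1), 1 member higher for the depot difference of the genotype effect (from 0), 4 members lower at ZT 10 in BAT (from 8), 1 member higher at ZT 18 in BAT (from 0), 4 members lower at ZT 18 in BAT (from 8), 1 member higher at ZT 22 in BAT (from 0), 2 members higher at ZT 10 in eWAT (from 4) and 1 member lower at ZT 18 in eWAT (from 0), and the sign turned for *Dgat1* over the day in BAT (0.35), *Gpam* over the day in eWAT (-0.0593), *Gpat4* over the day in eWAT (-0.13), *Dgat2* over the day in eWAT (-0.12), *Gpam* between depots in WT (-0.41), *Dgat1* between depots in WT (-0.15), *Lpin1* at ZT 6 in BAT (0.38), *Dgat1* at ZT 6 in BAT (0.23), *Lpin1* at ZT 10 in BAT (0.23), *Dgat1* at ZT 10 in BAT (0.19), *Gpam* at ZT 18 in BAT (0.0776), *Gpat3* at ZT 18 in BAT (0.11), *Dgat1* at ZT 18 in BAT (0.50), *Gpam* at ZT 22 in BAT (0.25), *Gpat4* at ZT 22 in BAT (0.10), *Dgat1* at ZT 22 in BAT (0.49), *Gk* at ZT 22 in BAT (0.0297), *Gpat4* at ZT 10 in eWAT (-0.25), *Lpin1* at ZT 10 in eWAT (-0.15), *Gpat4* at ZT 18 in eWAT (-0.12), *Dgat2* at ZT 18 in eWAT (-0.13) and *Gpam* at ZT 22 in eWAT (-0.21). With mitochondrial genome genes removed, the sign turned for *Gpam* at ZT 22 in eWAT (-0.0253). With DESeq2, the count became 4 other pathway enzymes lower over the day in eWAT (from 2) and 1 member lower at ZT 18 in eWAT (from 0), and the sign turned for *Dgat2* at ZT 18 in eWAT (-0.0288) and *Gpam* at ZT 22 in eWAT (-0.0510). With limma-voom, the count became 1 member lower at ZT 18 in eWAT (from 0). With no filter on low counts, the sign turned for *Dgat2* at ZT 18 in eWAT (-0.00810) and *Gpam* at ZT 22 in eWAT (-0.0303). With a filter of at least 1 CPM in 16 samples, the count became 4 other pathway enzymes lower over the day in eWAT (from 2) and 1 member lower at ZT 18 in eWAT (from 0), and the sign turned for *Gpam* at ZT 22 in eWAT (-0.0208). With the replicate block by depot pair, the sign turned for *Gpat3* for the depot difference of the genotype effect (-0.0328). With time point as a factor, the sign turned for *Gpat3* for the depot difference of the genotype effect (-0.0105). With a separate fit for each depot, the count became 5 members lower at ZT 18 in BAT (from 8), 4 other pathway enzymes lower over the day in eWAT (from 2) and 4 lipid droplet genes higher over the day in eWAT (from 7), and the sign turned for *Dgat2* at ZT 18 in eWAT (-0.00470) and *Gpam* at ZT 22 in eWAT (-0.0265). Without WT BAT ZT 18 replicate 4, the count became 5 members lower at ZT 18 in BAT (from 8), and the sign turned for *Gpat3* for the depot difference of the genotype effect (-0.0266). Without WT eWAT ZT 18 replicate 4, the count became 1 member called for a rhythm difference in eWAT (from 0) and 0 members higher at ZT 18 in eWAT (from 1), and the sign turned for *Dgat2* at ZT 18 in eWAT (-0.29). Without the BAT libraries high in muscle markers, the count became 2 lipid droplet genes higher over the day in BAT (from 1), 4 other pathway enzymes lower over the day in eWAT (from 2) and 5 members lower at ZT 18 in BAT (from 8), and the sign turned for *Dgat1* at ZT 18 in BAT (0.11), *Dgat2* at ZT 18 in eWAT (-0.0105) and *Gpam* at ZT 22 in eWAT (-0.0305). At an FDR of 0.05, the count became 4 other pathway enzymes lower over the day in eWAT (from 2), 5 members higher at ZT 6 in eWAT (from 3), 2 members lower at ZT 6 in eWAT (from 1) and 2 members lower at ZT 18 in eWAT (from 0). Leaving out replicates 1 to 4 in turn gave counts of 0 to 4 members called for a rhythm difference in BAT, 4 to 5 lipid droplet genes higher over the day in eWAT, 0 to 5 members called for a rhythm in WT eWAT, 5 to 7 members lower at ZT 18 in BAT, 0 to 1 members higher at ZT 18 in eWAT, 1 to 2 other pathway enzymes lower over the day in eWAT, 2 to 5 members higher at ZT 10 in eWAT, 0 to 1 members lower at ZT 18 in eWAT, 1 to 2 members higher at ZT 22 in eWAT, 1 to 2 members lower at ZT 22 in eWAT, 0 to 2 members called for a rhythm difference in eWAT and 1 to 2 members lower between depots in WT. The log2 values ranged from -0.0169 to 0.0969 for *Gpat4* at ZT 10 in eWAT, -0.0953 to 0.18 for *Gpam* at ZT 22 in eWAT, -0.34 to 0.0254 for *Dgat2* between depots in WT, -0.0968 to 0.20 for *Gpat3* for the depot difference of the genotype effect, -0.0965 to 0.00944 for *Gpat4* at ZT 6 in eWAT, -0.17 to 0.0525 for *Dgat1* at ZT 18 in BAT and -0.24 to 0.18 for *Dgat2* at ZT 18 in eWAT.

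The labels give the groups the same replicate numbers and do not say that a number marks a shared animal or day. Deviations of same-numbered samples correlated at -0.22 to 0.48 between depots (median 0.12, beside -0.0416 for other numbers, over 0.1 in 19 of 32 pairs, 34 of 64 samples best with their own number) and at -0.16 to 0.41 between genotypes (median 0.17 beside -0.0411, 19 of 32 pairs, 48 of 64 samples). These values are a hint of pairing from the data, not from the design. The samples were treated as paired only if every pair exceeded 0.1, which was not met. This rule cannot exclude that depots or genotypes share animals or days. All p-values, of genotype, single time points, depots and the interaction, therefore hold for unpaired samples. With a block for each depot pair, no call of a member changed in the depot comparisons and the interaction. Pairing of genotypes within a depot and time point was not fitted. The replicate block gives a number the same term in every group, so it does not model such pairing. With the replicate block, the rhythm of *Lpin1* in FANKO eWAT was called (adjusted p = 0.00794), the count of members lower over the day in BAT was 10, and it changed no other call of a member. Rhythms rest on 4 time points and single time points on 4 samples per group, so a difference that missed the threshold is not shown to be absent.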
